A study of Mus musculus with 6 samples.

Results

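The genes described here are the muscle-type actins, the cytoplasmic actins and a small group of contractile genes, 10 in all: the sarcomeric actin genes Actc1 and Acta1, the smooth-muscle actin genes Acta2 and Actg2, the cytoplasmic actin genes Actb and Actg1, the smooth-muscle genes Tagln, Cnn1 and Myl9, and Phactr3, which encodes a regulator of actin and protein phosphatase 1. They were matched by symbol to the platform's probe annotation, and 9 of the 10 had a probe, 1 probe each, out of 17422 genes tested. Myl9 had no probe under its symbol or Entrez ID and was not analysed here. The set was chosen by the measured signal difference between knockdown and control on these same arrays, so their own differences are given as a description, without a test.

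The cells were oligodendrocyte precursors (OPCs), which give rise to the myelinating glia of the brain, taken from forebrains of E15.5 Jcl:ICR mouse embryos. All cells were kept with the growth factors FGF2 and PDGF-AA. They were infected either with a Chd7 knockdown retrovirus (Chd7 KD, 3 samples) or with a control retrovirus (Control, 3 samples) and collected 3 days after infection. Every sample has 1 one-colour array. Separate cultures are not stated for the replicates, and a p-value therefore reflects the spread among these 6 arrays alone, which could be technical. The share of infected cells and the knockdown sequence are not given in the labels used here.

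Actin filaments are built from near-identical proteins encoded by separate genes. Actc1 and Acta1 supply the thin filaments of heart and skeletal muscle, Acta2 and Actg2 those of smooth muscle, and Actb and Actg1 the cytoskeleton of every cell. Tagln (transgelin) and Cnn1 (calponin) bind actin filaments in smooth muscle, and Myl9 is a regulatory light chain of myosin. Most of these genes are classical targets of serum response factor (SRF), which binds a DNA element named the CArG box and works with the actin-sensing cofactors MRTF-A and MRTF-B. PHACTR proteins bind monomeric actin through the same kind of motif as the MRTFs.

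The sequences before the annotated start of the actin genes are shown because they hold the element that the family shares. RefSeq promoter sequences (GRCm38.p6) were available for 6 of the 10 members. The 250 bases before the start are printed for the sarcomeric actin genes, the smooth-muscle actin gene Acta2 and the cytoplasmic actin gene Actg1, with CArG boxes and their variants in capitals. A CArG box was counted where the motif of that name matched exactly, and a variant where 1 of its 6 central bases was G or C. The motif is its own reverse in form, so both strands were covered.
Actc1, chr2:114052876-114053125, minus strand: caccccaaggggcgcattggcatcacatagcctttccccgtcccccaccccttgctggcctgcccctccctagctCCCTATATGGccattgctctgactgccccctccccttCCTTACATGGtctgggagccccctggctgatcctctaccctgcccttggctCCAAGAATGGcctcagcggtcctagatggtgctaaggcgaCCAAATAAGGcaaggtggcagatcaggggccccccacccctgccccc
Acta1, chr8:123894776-123895025, minus strand: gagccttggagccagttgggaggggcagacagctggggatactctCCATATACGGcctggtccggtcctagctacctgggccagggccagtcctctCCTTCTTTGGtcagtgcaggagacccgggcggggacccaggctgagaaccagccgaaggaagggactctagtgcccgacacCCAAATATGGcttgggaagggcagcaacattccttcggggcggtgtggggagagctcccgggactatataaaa
Acta2, chr19:34255374-34255623, minus strand: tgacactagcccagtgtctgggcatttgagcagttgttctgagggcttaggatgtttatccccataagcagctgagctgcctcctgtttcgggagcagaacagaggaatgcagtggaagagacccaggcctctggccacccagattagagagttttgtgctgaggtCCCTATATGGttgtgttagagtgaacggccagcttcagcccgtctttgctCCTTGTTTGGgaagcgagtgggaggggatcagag
Actg1, chr11:120348496-120348745, minus strand: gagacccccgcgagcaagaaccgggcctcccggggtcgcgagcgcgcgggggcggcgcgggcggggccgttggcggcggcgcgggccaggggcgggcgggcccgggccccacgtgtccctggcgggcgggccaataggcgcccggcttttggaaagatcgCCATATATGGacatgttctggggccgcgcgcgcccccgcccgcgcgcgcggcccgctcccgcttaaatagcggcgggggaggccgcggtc

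An exact CArG box lay in 4 of the 6 windows (Actc1, Acta1, Actg1 and Myl9), and Acta2 held variants only. Over all 32851 windows of the same length 1.47% held the exact box and 8.59% the box or a variant. The Actc1 window held 1 exact box, beginning 47 bases before the start, and 3 variants. The Acta1 window held 1 exact box, beginning 73 bases before the start, and 2 variants. Actg1 held 1 exact box, at 90 bases, and no variant. The Cnn1 window held neither. A match describes these letters only. Actc1 and Acta1 both have 1 exact box nearest the start and variants farther away.

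**Figure D1:**
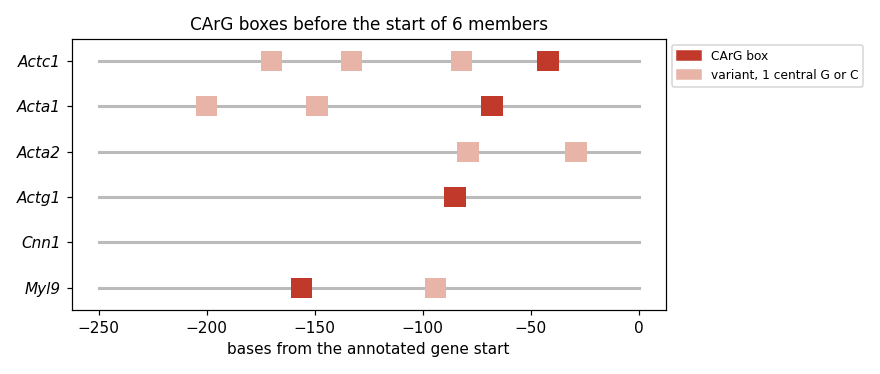
Positions of exact CArG boxes (dark red) and variants with 1 central G or C (light red) in the 250 bases before the annotated start of the 6 members with a RefSeq promoter sequence. The x axis is the distance from the start in bases, and Actc1 holds 4 sites while Cnn1 holds none.

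Chd7, the chromatin remodeller that was targeted, was lower on every Chd7 KD array. Its brighter probe read 8.49 ± 0.054 (log2 intensity, SD, n = 3) in Chd7 KD and 9.37 ± 0.15 in Control cells, a log2 difference of -0.88 (SE 0.086, adjusted p = 0.00112 in limma), or 54.3% of Control. Its other probe gave a smaller difference of -0.48 (SE 0.068, adjusted p = 0.00411 over all probes), or 71.5% of Control. Raw signals had medians of 83.4 to 89.4, and the detection limit (mean of blank spots plus 2 SD) was passed by 87.0% to 89.8% of probes.

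Actc1 (probe M400010954) showed the widest gap of the 9 genes. Its log2 intensity was 6.44, 6.43 and 6.33 on the Chd7 KD arrays, against 7.36, 7.57 and 7.43 on the Control arrays. The groups did not overlap, which also held for 29.9% of all genes, and Actc1 is among the genes chosen on this contrast. The means were 6.40 ± 0.057 in Chd7 KD cells and 7.46 ± 0.11 in Control cells (SD, n = 3 each), a log2 difference of -1.06 (SE 0.063), which left 48.1% of the Control signal. In raw scanner units the spot read 98.2, 90.7 and 92.4 in Chd7 KD cells, against 167, 201 and 183 in Control cells, where blank spots averaged 58.9 to 61.9. Actc1 was thus dim but above the detection limit on all 6 arrays. The authors' processed table lists 27, 25 and 21 in Chd7 KD cells, against 87, 106 and 95 in Control cells, or 25.3% of the Control level.

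Actc1 differed by a like amount within each replicate number, by -0.93, -1.14 and -1.10 on the log2 scale for replicates 1, 2 and 3. The scanner slopes in the file headers put the arrays into 2 sets (0.464 to 0.467 and 0.478 to 0.479), each with 2 arrays of one group and 1 of the other. Within them the log2 difference was -1.04 and -1.05. In this bulk RNA, fewer cells that express a gene and less RNA per cell cannot be told apart.

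Phactr3 (probe M200014094), which is no muscle gene but encodes a brain-enriched actin and phosphatase regulator, was the other member whose groups did not overlap. Its log2 intensity was 6.59, 6.60 and 6.73 on the Chd7 KD arrays, against 7.46, 7.39 and 7.53 on the Control arrays. The means were 6.64 ± 0.081 in Chd7 KD cells and 7.46 ± 0.070 in Control cells (SD, n = 3 each). The log2 difference was -0.82 (SE 0.061), which left 56.7% of the Control signal, or 37.5% in the authors' processed table (34, 34 and 40 in Chd7 KD cells, against 95, 89 and 104 in Control cells). By replicate number the difference was -0.87, -0.79 and -0.80, and within the sets of like scanner slope it was -0.82 and -0.87.

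In the fit across all genes, 2 of the 9 members passed an adjusted p below 0.05, both lower in Chd7 KD cells, while 9.63% of all 17422 genes passed in either direction with 4.48% called higher and 5.15% called lower. Over all genes the split was 781 higher and 897 lower, and in the authors' processed values 324 higher and 685 lower. Blocking on replicate number gave 2582 calls over all genes, against 1678 without the block. With the block 3 of the 9 members passed, the one added being Tagln, which was higher in Chd7 KD cells. The arrays of the groups did not overlap for 2 of the 9 members, against 29.9% of all genes. The choice of the members used this contrast, so nothing is read from these counts. The median log2 difference of the 9 was -0.0022, beside 7.66e-04 over all genes.

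**Figure D2:**
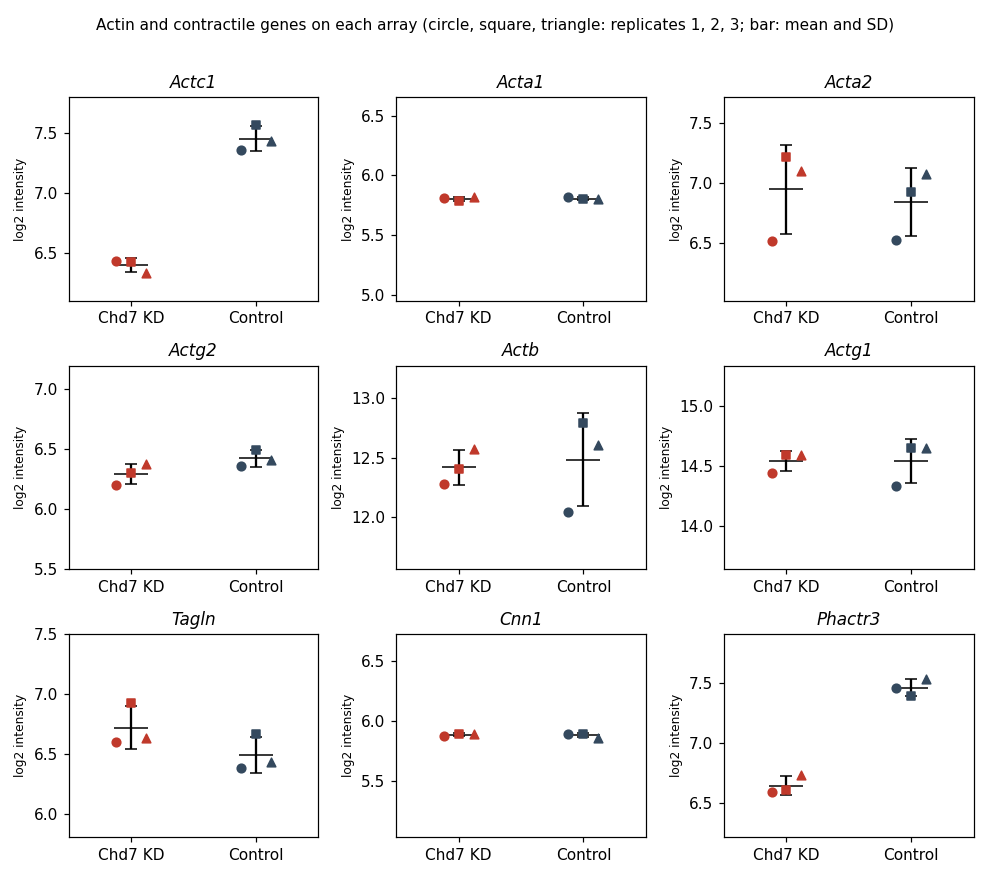
Log2 intensity of the 9 members with a probe on each of the 3 Chd7 KD (red) and 3 Control (dark grey) arrays. Circles, squares and triangles are replicates 1, 2 and 3, and bars give the mean and SD. All panels span the same range of log2 units. Actc1 and Phactr3 sit lower on every Chd7 KD array, and the other 7 genes overlap.

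Acta1, the other sarcomeric actin gene, lay at the floor of the arrays. It read 5.81, 5.79 and 5.82 in Chd7 KD cells, against 5.82, 5.80 and 5.80 in Control cells, where the lowest detected probes stood at 5.75 to 5.76. Its raw signal of 62.5 to 66.3 was only just above the detection limit of each array, which ranged from 60.6 to 64.0. The log2 difference was -0.0022 (SE 0.016), and a fall was not detectable from this level. The actin genes are close in coding sequence, probe sequences were not used here, and cross-hybridisation between them was not tested.

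The smooth-muscle actin genes were above the floor and overlapped between groups. Acta2, the main smooth-muscle actin gene, read 6.52, 7.21 and 7.10 in Chd7 KD cells, against 6.52, 6.92 and 7.07 in Control cells. The spread came mainly from the arrays numbered 1, which were the lowest of both groups. The log2 difference of Acta2 was 0.10 (SE 0.19), and it was 0.49 within the arrays of lower scanner slope and -0.26 within those of higher slope, so its direction was not settled. It also turned without Chd7 KD replicate 2 (-0.03) or Control replicate 1 (-0.05). Actg2, the actin gene of visceral smooth muscle, read 6.20, 6.30 and 6.37 in Chd7 KD cells, against 6.36, 6.49 and 6.41 in Control cells. Only Chd7 KD replicate 3 reached the Control range, and the log2 difference was -0.13 (SE 0.052), or -0.36 in the authors' processed values. By replicate number the Actg2 difference was -0.16, -0.19 and -0.04, and it ran from -0.36 to -0.085 over the 20 other fits.

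The cytoplasmic actin genes gave strong signals. Actb read 12.28, 12.41 and 12.57 in Chd7 KD cells, against 12.05, 12.79 and 12.61 in Control cells. Control replicate 1 was the lowest and Control replicate 2 the highest, so the Control arrays enclosed the Chd7 KD arrays. The log2 difference was -0.06 (SE 0.17) with all arrays, -0.28 without Control replicate 1 and 0.09 without Control replicate 2. It was 0.0067 without Chd7 KD replicate 1 and 0.0012 without Control replicate 3, so its direction was not settled either. Actg1 read 14.45, 14.59 and 14.59 in Chd7 KD cells, against 14.33, 14.65 and 14.65 in Control cells, a log2 difference of -9.78e-04 (SE 0.092). It was 0.10 and -0.13 within the arrays of lower and of higher scanner slope, and ran between -0.11 (without Control replicate 1) and 0.05 (without Control replicate 2 or 3), so no direction was settled. Equal values at this height arise because quantile normalization gives the same value to the same rank on each array. In the raw files the Actg1 spot read 21451 to 25947 in Chd7 KD cells and 18061 to 26716 in Control cells. Again the arrays numbered 1 were the lowest of both groups after normalization.

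Of the smooth-muscle actin-binding genes, Tagln was above the floor and Cnn1 near it. Tagln read 6.60, 6.92 and 6.63 in Chd7 KD cells, against 6.38, 6.67 and 6.43 in Control cells. Chd7 KD replicate 2 exceeded every other array and Control replicate 2 exceeded both remaining Chd7 KD arrays, so the groups overlapped, yet within each replicate number Tagln was higher in Chd7 KD by 0.22, 0.26 and 0.20. The log2 difference was 0.23 (SE 0.098), or 0.48 in the authors' processed values. It was 0.40 and 0.19 within the arrays of lower and of higher scanner slope, and 0.13 without Chd7 KD replicate 2, the lowest value when 1 array was left out. Cnn1 stayed near the floor, at 5.88, 5.90 and 5.89 in Chd7 KD cells, against 5.90, 5.89 and 5.86 in Control cells, with a log2 difference of 0.0040 (SE 0.018). A fall of Cnn1 was not detectable from this level.

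**Figure D3:**
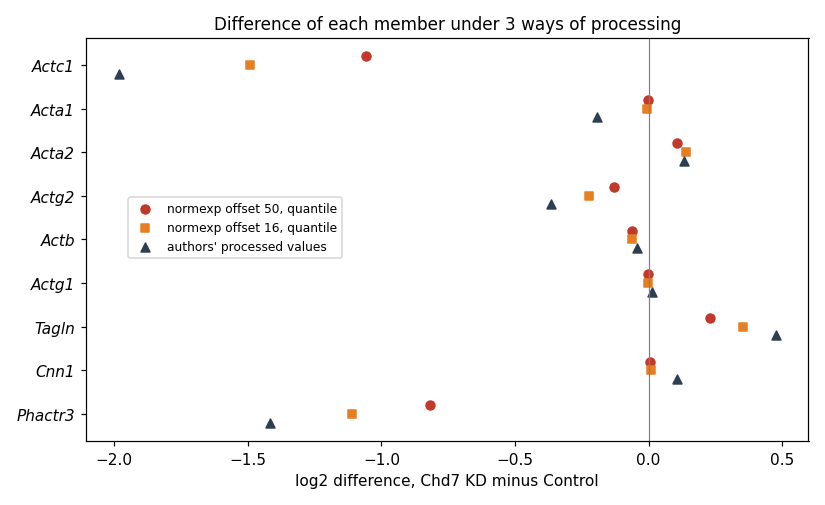
Log2 difference (Chd7 KD minus Control, x axis) of each of the 9 members after normexp with an offset of 50 (circles), with an offset of 16 (squares) and in the authors' processed values (triangles). Actc1 stands at -1.06, -1.49 and -1.98 and Phactr3 at -0.82, -1.11 and -1.42, while Actb and Actg1, the brightest spots, hardly move.

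The size of the Actc1 and Phactr3 differences depended on the processing, as did that of other dim genes named below. With a normexp offset of 16 the log2 difference was -1.49 for Actc1 and -1.11 for Phactr3, and in the authors' processed values it was -1.98 and -1.42. Both genes lay below Control in all 20 other fits that were run.

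Patterns over the 6 arrays were compared by the root mean square difference of log2 values centred on the Control mean. Phactr3 was the member nearest to Actc1, at 0.21 log2 units, and the others lay at 0.66 (Actg2) to 0.91 (Tagln). Values centred this way carry the group difference by which the members were chosen, so nothing is read from this order of members. Among the 17413 tested genes that are no members, those nearest to Actc1 were Scrg1 (0.085), Rab33a (0.11), Lnx1 (0.13), Ugdh (0.14) and Kcnd2 (0.15). Their log2 differences were -1.04 (Rab33a) to -0.93 (Kcnd2), near the -1.06 of Actc1, so this order too carries the group difference. These distances are those of the main fit, and the closeness depended on the processing. At a normexp offset of 16 the log2 difference was -1.49 for Actc1, against -1.18 (Rab33a) to -1.04 (Scrg1) for these genes. In the authors' processed values it was -1.98 for Actc1, against -1.32 (Rab33a) to -1.11 (Scrg1).

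Genes that act with these actins were then counted in lists that do not contain the members. The lists too were chosen with earlier results of these data known, so their shares are given as a description. Of 16 tested genes of SRF, its cofactors and RhoA signalling, 3 rose, none fell and 13 did not pass (18.8% called, against 9.63% of all genes), with a median log2 difference of 0.0097. Srf itself read 0.0017 (SE 0.042), and the cofactor genes Mrtfa, Mrtfb and Myocd read -0.0052, -0.0060 and -0.01. Diaph3, a formin that assembles actin filaments, rose by 0.22 (SE 0.052, adjusted p = 0.0294 in limma), with 7.08, 6.97 and 7.01 in Chd7 KD cells, against 6.86, 6.76 and 6.77 in Control cells. Limk1, a kinase that inactivates cofilin, rose by 0.23 (adjusted p = 0.0477), and Elk3, a ternary complex factor that binds SRF, by 0.17 (0.0433). The GTPase gene Rhoc read 0.23 (adjusted p = 0.0639, and 0.0414 with the replicate number as a block). With that block 5 rose and 1 fell, while 2582 of all 17422 genes were called. The others added were Rhob (0.19, adjusted p = 0.0431) and Rock1 (-0.17, 0.0446). Limk1 and Elk3 were not called when any 1 of the 6 arrays was left out, nor Diaph3 except without Control replicate 1 (up to 0.140 over the 3 genes), and none of the 16 passed in the authors' processed values.

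Of 16 tested genes among 17 other targets of SRF and the MRTFs, 2 rose, 1 fell and 13 did not pass (18.8% called, against 9.63% of all genes), with a median of 0.02, and Ankrd1 was below the detection filter. Ccn2, which encodes the matricellular protein CTGF, rose by 0.61 (SE 0.046, adjusted p = 4.20e-04), with 6.71, 6.68 and 6.56 in Chd7 KD cells, against 6.09, 6.01 and 6.01 in Control cells. Vcl, which encodes the adhesion protein vinculin, rose by 0.50 (SE 0.089, adjusted p = 0.00979), with 8.46, 8.14 and 8.42 in Chd7 KD cells, against 7.81, 7.80 and 7.91 in Control cells. Lima1, an actin cross-linker, fell by 0.28 (SE 0.061, adjusted p = 0.0231), a call lost without Chd7 KD replicates 1, 2 or 3 (up to 0.0826). Filip1l, a filamin-interacting protein gene, read 0.12 (adjusted p = 0.174).

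**Figure D4:**
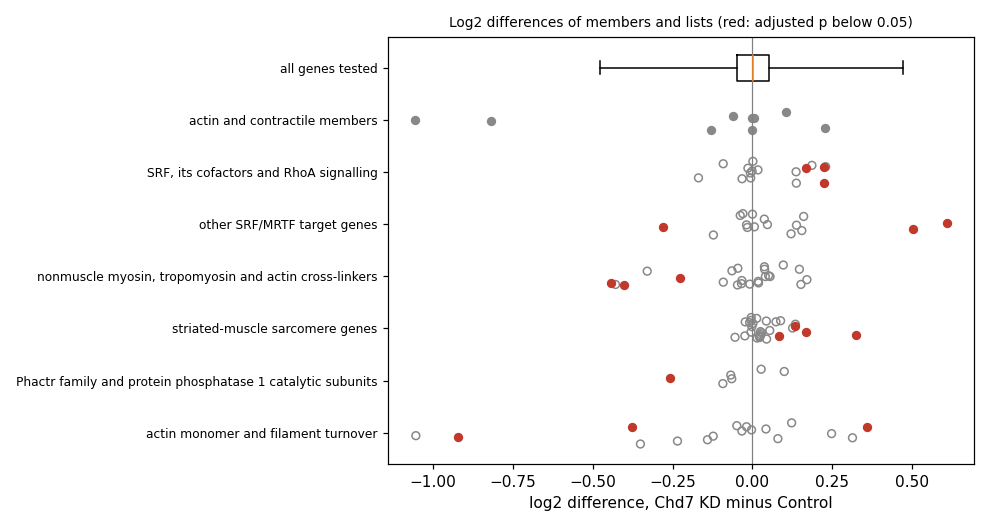
Log2 difference (Chd7 KD minus Control, x axis) of each tested gene in the members and in the 6 related lists. Red points passed an adjusted p below 0.05 in limma, open points did not, and members are solid grey because no call is shown for genes chosen on this contrast. The box shows all 17422 genes with whiskers at percentiles 1 and 99 (-0.48 and 0.47). Actc1 and Phactr3 lie beyond the lower whisker.

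Of 23 tested genes of nonmuscle myosin, tropomyosin and actin cross-linkers, 3 fell, none rose and 20 did not pass. This was 13% called, against 9.63% of all genes, with a median of -0.0080. Tpm1, a tropomyosin gene that stabilises actin filaments, fell by 0.44 (SE 0.083, adjusted p = 0.0128), with 9.12, 9.24 and 9.07 in Chd7 KD cells, against 9.47, 9.71 and 9.58 in Control cells. Cald1 (caldesmon, which binds actin and tropomyosin) fell by 0.40 (adjusted p = 0.00762) and Myh10 (the heavy chain of nonmuscle myosin IIB) by 0.23 (0.00448). Tpm4 read -0.43 (adjusted p = 0.0614, and 0.0187 with the replicate block). With the block 5 fell and 1 rose, while 2582 of all 17422 genes were called. The others added were Tagln2 (-0.33, adjusted p = 0.0107) and Myh9 (0.15, 0.0484). Tagln2, the transgelin gene expressed outside muscle, was lower in each replicate number by -0.29, -0.43 and -0.27, and its adjusted p was 0.247 without the block. The call for Tpm1 was lost without Chd7 KD replicate 1 or 3 (up to 0.0525).

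Of 37 other striated-muscle sarcomere genes 28 were tested, 8 lay below the detection filter and 1 had no probe. Of the 28, 4 rose, none fell and 24 did not pass (14.3% called, against 9.63% of all genes). Their median was 0.02, beside 7.66e-04 over all genes. The difference was positive for 20 of the 28 and negative for 8. Tnnt1, the slow skeletal troponin T gene, read 6.47, 6.48 and 6.22 in Chd7 KD cells, against 5.94, 6.16 and 6.09 in Control cells, and rose by 0.33 (adjusted p = 0.0289). The myosin light chain genes Myl1 and Myl3 rose by 0.17 (0.0103) and 0.08 (0.0359), and the muscle creatine kinase gene Ckm by 0.13 (0.0227). Most genes of the list lie near the floor, where a fall was not detectable, and 1 to 3 genes of the list passed when an array was left out. Myl1 passed in each of those fits and Myl3 in none. Tnnt1 did not pass without Chd7 KD replicates 1 or 2 or Control replicates 1 or 3, nor Ckm without any array but Control replicate 2 (up to 0.123 over the 3 genes). The cardiac genes Myh6, Myh7, Tnnt2 and Tnni3 read 0.0020, -0.02, 0.04 and -0.0016, and none passed.

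Of the 6 tested genes of the Phactr family and the protein phosphatase 1 catalytic subunits, Phactr1 fell and 5 did not pass. This was 16.7% called, against 9.63% of all genes. Phactr1, a paralogue of Phactr3, read 7.03, 7.14 and 7.13 in Chd7 KD cells, against 7.35, 7.35 and 7.37 in Control cells. It fell by 0.26 (SE 0.053, adjusted p = 0.0181), a call lost without Chd7 KD replicate 1 or Control replicate 2 (up to 0.0728). Phactr4 read -0.07 and Phactr2 0.03. The phosphatase subunit genes Ppp1ca, Ppp1cb and Ppp1cc read -0.06, 0.10 and -0.09.

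Of 17 tested genes of actin monomer and filament turnover, 1 rose, 2 fell and 14 did not pass. This was 17.6% called, against 9.63% of all genes, with a median of -0.03. Arpc5 and Actr3, subunits of the Arp2/3 complex that nucleates branched filaments, fell by 0.92 (SE 0.088, adjusted p = 0.00103) and by 0.38 (0.0188). Arpc5 read 9.50, 9.61 and 9.72 in Chd7 KD cells, against 10.51, 10.43 and 10.65 in Control cells, a gap far wider than the spread in either group. Arpc1b, another subunit of the same complex, rose by 0.36 (adjusted p = 0.042), and its other probe read 0.40 (adjusted p = 0.0182 over all probes). The profilin gene Pfn2 read 0.31 (adjusted p = 0.0537, and 0.0389 with the replicate block). With the block 2 rose and 4 fell, while 2582 of all 17422 genes were called. The others added were Tmsb10 and Gsn. Tmsb10, which encodes a thymosin that binds actin monomers, read 8.46, 9.63 and 8.99 in Chd7 KD cells, against 9.40, 10.84 and 9.99 in Control cells. The groups overlapped, but by replicate number the difference was -0.95, -1.21 and -0.999. Its mean difference of -1.05 (SE 0.36) had an adjusted p of 0.107 without the block and 7.21e-05 with it. Gsn, which encodes the filament-severing protein gelsolin, read -0.35 (adjusted p = 0.173, and 0.00974 with the block). Actr3 was not called without Chd7 KD replicates 1 or 2 or Control replicates 2 or 3, nor Arpc1b without any 1 of the 6 arrays.

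In the authors' processed values many dimmer genes of these lists differed by more. Ccn2 read 1.83, Myh10 -0.77, Cald1 -0.77, Tnnt1 1.15, Myl1 1.13, Myl3 0.39, Ckm 0.56, Lima1 -0.52, Phactr1 -0.43, Diaph3 0.39 and Elk3 0.31. The brighter genes Vcl, Tpm1, Arpc5 and Actr3 read 0.58, -0.53, -1.03 and -0.44, closer to the values given above.

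Marker genes were read to see which cells the samples held. All 7 precursor markers were detected on all 6 arrays. Of these, 4 passed as lower in Chd7 KD cells (Pdgfra, Cspg4, Olig2 and Sox10) and none as higher. Over all genes 5.15% were called lower. The difference was negative for 6 of the 7 and positive for 1 (Gpr17). Olig1, the brightest of the 7, weighs most in their summed intensity and read -0.24 (adjusted p = 0.248 in limma). That sum was 9446 to 10679 in Chd7 KD cells, against 12030 to 14225 in Control cells. This sum was lower in Chd7 KD cells, as were Actc1 and Phactr3, and its part in their difference was not tested. Of 12 smooth-muscle and pericyte markers 11 were tested, and their summed intensity was 1002 to 1019 in Chd7 KD cells, against 955 to 973 in Control cells. The adhesion gene Mcam rose by 0.20 (adjusted p = 0.0244) and the other 10 tested did not pass. The median log2 difference of the 11 was -0.0011, with 5 positive and 6 negative, so the sum was carried by the brighter markers such as Anpep (0.21, adjusted p = 0.0941) and Mcam. Kcnj8 was below the detection filter. The defining smooth-muscle genes Myh11 and Des read 5.90 to 5.96 and 5.79 to 5.81 in Chd7 KD cells, against 5.90 to 5.93 and 5.74 to 5.79 in Control cells, near the floor. The part of mural cells in the Tagln difference was not tested. None of the tested fibroblast (6 of 6), endothelial (4 of 7), astrocyte (5 of 5), neuronal (5 of 5) and microglial markers (4 of 5) passed in either direction without the replicate block. Marker calls with the block are not given here. Closest to passing was the fibroblast marker Ogn (0.27, adjusted p = 0.0519 in limma). It read 6.37, 6.59 and 6.58 in Chd7 KD cells, against 6.12, 6.35 and 6.27 in Control cells. Of the 6 fibroblast markers 3 were positive and 3 negative. Pecam1, Cldn5, Tek and Itgam were below the detection filter. The astrocyte sum was 7482 to 8152 in Chd7 KD cells, against 6703 to 7061 in Control cells. Of its 5 markers 3 were positive and 2 negative, and the largest difference was that of the bright Gja1 (0.44, adjusted p = 0.157 in limma).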

How the data were processed

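Cy5-labelled RNA from 6 samples was hybridised to one-colour TORAY arrays. The deposited intensity is, per the file headers, each spot's median at 635 nm, with scans at 3 gains combined by a least-squares fit. The authors also deposited processed values (treated as a score, whole numbers whose scaling is not stated), in which missing entries were set to 1 before log2. The number of arrays limits the precision. Here normexp (offset 50, no local background) and quantile normalization were applied to these intensities, which were then averaged per probe in limma 3.58.1 (R 4.3.3). Probes above the mean of blank spots plus 2 SD on at least 3 arrays were tested, 1 probe per gene (highest mean), with lmFit and trended eBayes and Benjamini-Hochberg adjustment over 17422 genes. limma p-values are two-sided. The procedure was tested on simulated data with changes placed only in brighter genes and no deviations shared by replicate number. That test does not cover the dim genes named here. Gene names came from the platform annotation, of which 20555 probes matched RefSeq by Entrez ID. The members and lists were chosen with earlier results of these data known. Named genes were Chd7, the members, of each list up to 4 genes with the smallest p and the 5 nearest to Actc1. Others (Srf, Mrtfa, Mrtfb, Myocd, the cardiac genes, Phactr2, Ppp1ca, Ankrd1, Rhob, Rock1, Myh9, Tagln2, Tmsb10, Gsn, the markers) were added after their values were seen.

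Replicate numbers are shared by both groups. Same-numbered arrays deviated together (correlation of deviations 0.36, 0.38 and 0.23). The block therefore takes the numbers to pair the samples, from the data and not from the labels. The main fit has no block and treats the arrays as unpaired. Block results stand beside the members and list genes whose call they change. Alternatives were other corrections, normalizations, filters and variance models, the authors' values, scanner-slope sets, each probe by itself and leaving out arrays. Figures were drawn with matplotlib 3.10.9.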

Additional observations from a re-analysis of the deposited data

How the results depend on the processing

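The count of genes called, 1678 with all arrays (781 higher, 897 lower), was 2582 with the replicate block (1286 higher, 1296 lower), 1009 in the authors' processed values (324 higher, 685 lower), 38 and 39 within the arrays of lower and of higher scanner slope, and 800 without both arrays numbered 1. It was 748 to 1447 when 1 array was left out, lowest without Chd7 KD replicate 1. Dropping both arrays numbered 1 was chosen after seeing the data. Of the SRF and RhoA genes 3 were called, 6 with the replicate block, 1 with median scaling, and 0 in the authors' values, with the slope set as a block, within either slope set and without both arrays numbered 1, with 0 to 2 over the fits that left out 1 array. Of the other SRF targets 3 were called, 1 and 0 within the slope sets and 1 without both arrays numbered 1 (2 to 3 leaving out 1 array). Of the myosin, tropomyosin and cross-linker genes 3 were called, 6 with the replicate block and 0 within either slope set (2 to 3 leaving out 1 array). Of the sarcomere genes 4 were called, 2 in the authors' values, without the variance trend and with the slope set as a block, 0 within either slope set and 1 without both arrays numbered 1 (1 to 3 leaving out 1 array). Of the Phactr and phosphatase genes 1 was called, and 0 within either slope set and without both arrays numbered 1 (0 to 1 leaving out 1 array). Of the turnover genes 3 were called, 6 with the replicate block and 0 within either slope set (1 to 4 leaving out 1 array). The slope sets hold 3 arrays each, with a lone array assumed to vary like the others. Beyond these counts and the calls it added for Rhob, Rhoc, Rock1, Myh9, Tpm4, Tagln2, Pfn2, Tmsb10 and Gsn, the replicate block changed no other call among the tested genes of the 6 lists. The cause of the remaining changes was not tested. Actc1 read -1.98 to -0.99 and Phactr3 -1.42 to -0.77 over the 20 alternatives. Signal close to the blank spots limits what can be said of Acta1, Cnn1 and the dim sarcomere genes.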
